A study of Mus musculus with 12 samples.

Results

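Confluent mouse embryonic fibroblasts were given 1 mM S-adenosylmethionine (SAM) for 24 h, and the RNA of 3 SAM dishes was compared with that of 3 control (CTL) dishes, which are 6 of the 12 libraries sequenced. The libraries were chosen by their labels alone. The cells, of the strain C57 PER2::LUC, came from heterozygous knock-in mice whose clock protein PER2 is fused to luciferase, and the study calls them immortalized. Both groups received 3.3 mM HCl in fresh medium, since HCl was the solvent of adenine in another group, so that CTL means cells with HCl and not untouched cells. The other 6 dishes held 1 mM adenine or 10 μM deazaneplanocin A (DZ, an inhibitor of the enzyme AHCY), each also with 3.3 mM HCl for 24 h, and they entered the model of the spread and the direct comparisons with SAM. Nothing in the labels says that the dishes came from separate cell preparations, so that p-values measure only the spread between dishes, which may be technical. These are bulk samples of confluent cultures, in which fewer cells of a type and less RNA per cell cannot be told apart.

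SAM donates the methyl group in most cellular methylation reactions and becomes S-adenosylhomocysteine, which AHCY splits. It is also used for polyamine synthesis, from which adenine is recovered by the methionine salvage pathway, and this is the link to the adenine and DZ groups. Several gene programmes that respond to the supply of nutrients are well known in fibroblasts. The transcription factor ATF4 raises genes for amino acid uptake, amino acid synthesis and tRNA charging when amino acids are short or the endoplasmic reticulum is stressed. The SREBP factors raise genes for cholesterol and fatty acid synthesis when membrane sterol is low. The E2F factors, held back by the retinoblastoma proteins in resting cells, raise genes for DNA replication. All 51 replication genes listed here reached the authors' minimum of 1 CPM in every library, the confluent CTL dishes included.

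Values are log2 CPM, the reads of a gene relative to its library on the authors' scaling, and a difference of 1 is a doubling. Depth was 45649534 to 49644171 reads on the listed genes in CTL and 47504412 to 56789090 in SAM, with at least 46 reads for every gene in every library. SAM replicate 3 differed from SAM replicates 1 and 2 by a median of 0.0917 and 0.0933 per gene, against 0.0494 between those 2 and 0.0567 to 0.0681 among CTL dishes. Of 15 fibroblast markers, 12 were in the table, among them Col1a1, Col1a2, Vim, Thy1, Pdgfra and Pdgfrb, while Lum, Dcn and Fap were not listed. Their sum was 22458 to 22899 CPM in CTL and 17161 to 18499 in SAM, although 11 of the 12 were higher and Fn1 alone was lower (-1.58). No member of the 7 endothelial or 8 epithelial markers was listed, nor were Ptprc, Adgre1, Csf1r or 7 other leukocyte markers. The only leukocyte marker in the table, Cd68, summed to 3.03 to 4.0 CPM in CTL and 15.6 to 17.7 in SAM. Of 7 neural markers, Tubb3, Sox2, Nes and Map2 were listed, whereas Gfap, Rbfox3 and Stmn2 were not. The listed ones summed to 71.8 to 74.6 CPM in CTL and 144.7 to 168.0 in SAM. Nes (1.38), Map2 (1.41) and Sox2 (0.67) were higher in SAM, and Tubb3 was lower (-0.48). Of 6 skeletal muscle and 6 adipocyte markers 1 and 2 were listed. The muscle marker was at 1.48 to 1.65 CPM in CTL and 4.29 to 4.91 in SAM. The adipocyte markers summed to 9.86 to 10.1 and 10.5 to 12.4, with Fabp4 higher (1.42) and Pparg lower (-0.43). The part of these markers in the results was not tested.

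SAM changed most of the transcriptome, mostly by small amounts. In limma with an FDR under 0.01, 8731 of 12591 genes (69.3%) differed between SAM and CTL, 4237 higher (33.7%) and 4494 lower (35.7%). The median SE of a log2 fold change was 0.0546, so that differences far below a doubling passed the test. Log2 fold changes of at least 1 in either direction were seen in 1647 of the called genes (13.1% of those tested), 939 higher and 708 lower, and of at least 2 in 222 higher and 75 lower. In 9774 genes (77.6%) the 3 SAM values did not overlap the 3 CTL values, for which an exact permutation test gives p = 0.1, its lowest possible value with 3 dishes a group. Counts of list members given here are therefore read against these shares and not against 0. The scaling bears on small changes. With plain read totals in place of the authors' factors, the median over all genes was 0.107 instead of -0.0154, and 61.2% of the 8924 called genes were higher, against 48.5%. No gene went from called in one direction to called in the other.

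**Figure D1:**
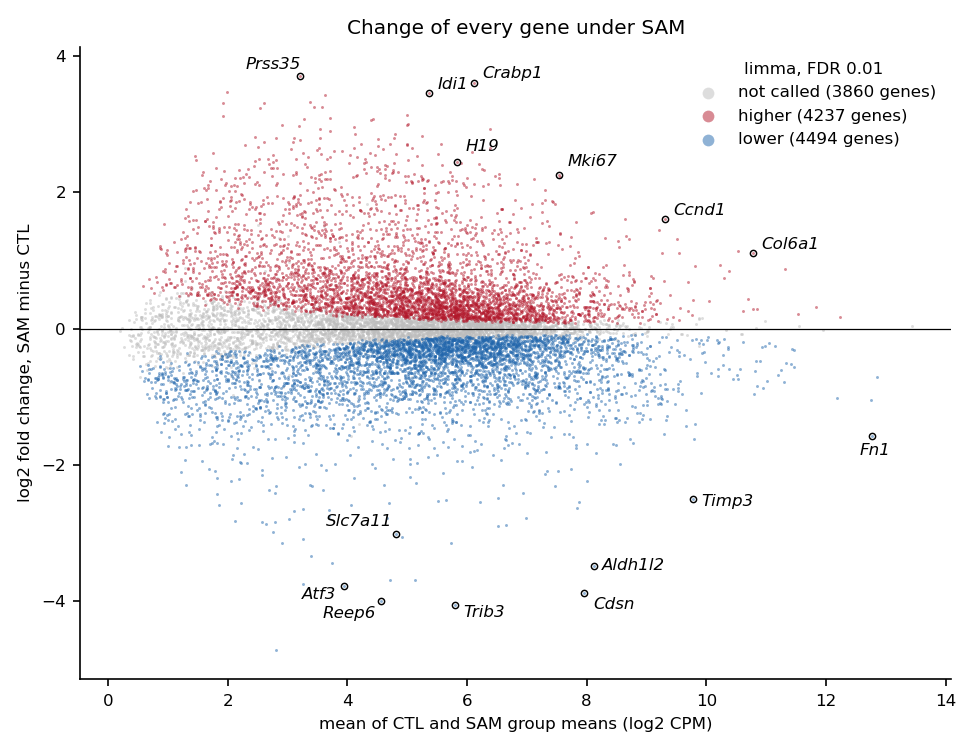
Log2 fold change of SAM against CTL (y axis) by the mean of the group means in log2 CPM (x axis) for 12591 genes, red for higher, blue for lower and grey for not called. The steepest falls reach further than the steepest rises among well-expressed genes, with Aldh1l2 (-3.48) and Cdsn (-3.87) near the bottom and Fn1 (-1.58) toward the right.

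The steepest falls included several stress-response genes. Trib3, a pseudokinase induced by ATF4 (chromosome 2, 152179337 to 152191958 of GRCm39), had 7.84, 7.81 and 7.84 log2 CPM in CTL and 3.78, 3.84 and 3.70 in SAM (log2 fold change -4.05, SE 0.037, adjusted p = 7.02e-19 by limma with the Benjamini-Hochberg correction). Atf3, a transcription factor of the stress response (chromosome 1, 190902493 to 190950241), had 5.85, 5.82 and 5.83 log2 CPM in CTL and 2.05, 1.97 and 2.12 in SAM, a level 13.8-fold lower. In both genes all SAM dishes lay far below all CTL dishes, and the dishes of each group lay close together. Cth, the enzyme that makes cysteine from cystathionine (chromosome 3, 157599868 to 157630739), went from 7.29, 7.29 and 7.34 to 4.08, 4.08 and 4.31 log2 CPM, 8.89-fold lower. Slc7a11, the cystine transporter (chromosome 3, 49846975 to 50398070), went from 6.31, 6.40 and 6.27 to 3.30, 3.38 and 3.25. Both genes of cysteine supply were thus among the 15 steepest falls.

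Some of the steepest falls were in abundant transcripts. Cdsn, which encodes the adhesion protein corneodesmosin (chromosome 17, 35863025 to 35868077), had 9.92, 9.87 and 9.92 log2 CPM in CTL and 6.02, 5.99 and 6.07 in SAM, 14.7-fold lower. Aldh1l2, the mitochondrial 10-formyltetrahydrofolate dehydrogenase (chromosome 10, 83323314 to 83370005), had 9.89, 9.85 and 9.85 in CTL and 6.37, 6.46 and 6.33 in SAM, 11.1-fold lower. The dishes of each group lay close together in both genes. The remaining falls named by rank were Reep6 (-4.01), AI115009 (-3.75), Acot2 (-3.70), Tenm4 (-3.69), Paqr3 (-3.44), H1f2 (-3.34), Acox2 (-3.09), Abcc4 (-3.06) and Ppp1r15a (-2.90), of which Acot2 and Acox2 encode enzymes of acyl-CoA and peroxisomal fatty acid metabolism, Abcc4 an efflux transporter, Tenm4 a teneurin and Ppp1r15a the GADD34 subunit that directs dephosphorylation of eIF2α. Tenm4 was the most uneven of them, with SAM values of 3.05, 3.64 and 3.15 log2 CPM against 7.06, 6.93 and 6.93 in CTL. A steeper fall, that of Pdzd7 (-4.72), was in a gene whose mean lay under the minimum of 3 log2 CPM used for this ranking, and it is named after its value was seen.

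The steepest rises were mostly in genes of low level in CTL. Prss35, a serine protease-like protein (chromosome 9, 86617045 to 86640606), had 1.59, 1.24 and 1.21 log2 CPM in CTL and 5.05, 5.02 and 5.10 in SAM (log2 fold change 3.71, SE 0.099, adjusted p = 3.42e-14). Crabp1, a cytosolic binding protein for retinoic acid (chromosome 9, 54671171 to 54680403), rose 12.2-fold, from 4.44, 4.16 and 4.34 to 7.86, 7.91 and 8.0. Idi1, the isopentenyl diphosphate isomerase of sterol synthesis (chromosome 13, 8935537 to 8942487), rose 10.9-fold, from 3.69, 3.61 and 3.62 to 7.10, 7.10 and 7.07. In each of the 3 genes the lowest SAM dish was more than 3 above the highest CTL dish. The next were Lrrc15 (3.44), Spon2 (3.25), Xkr5 (3.25), Serpina3g (3.14), Angpt1 (3.08), Mns1 (3.08), Acat3 (3.07), Megf6 (3.07), Tk1 (3.0), Mmp3 (2.99), Aoc3 (2.97) and Esco2 (2.95). Among these, Lrrc15 is known from activated stromal fibroblasts, Spon2 is a secreted matrix protein, Angpt1 a vessel-stabilising ligand, Mmp3 a matrix-degrading protease, Tk1 the thymidine kinase of S phase and Esco2 an acetyltransferase of sister chromatid cohesion. Acat3 is a near copy of Acat2, a cytosolic acetoacetyl-CoA thiolase that itself rose by 2.93, and the counting could have split their reads. Mmp13 (3.47) and Mest (3.30), described below, were left out of this ranking because their means lay under its minimum of 3 log2 CPM.

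**Figure D2:**
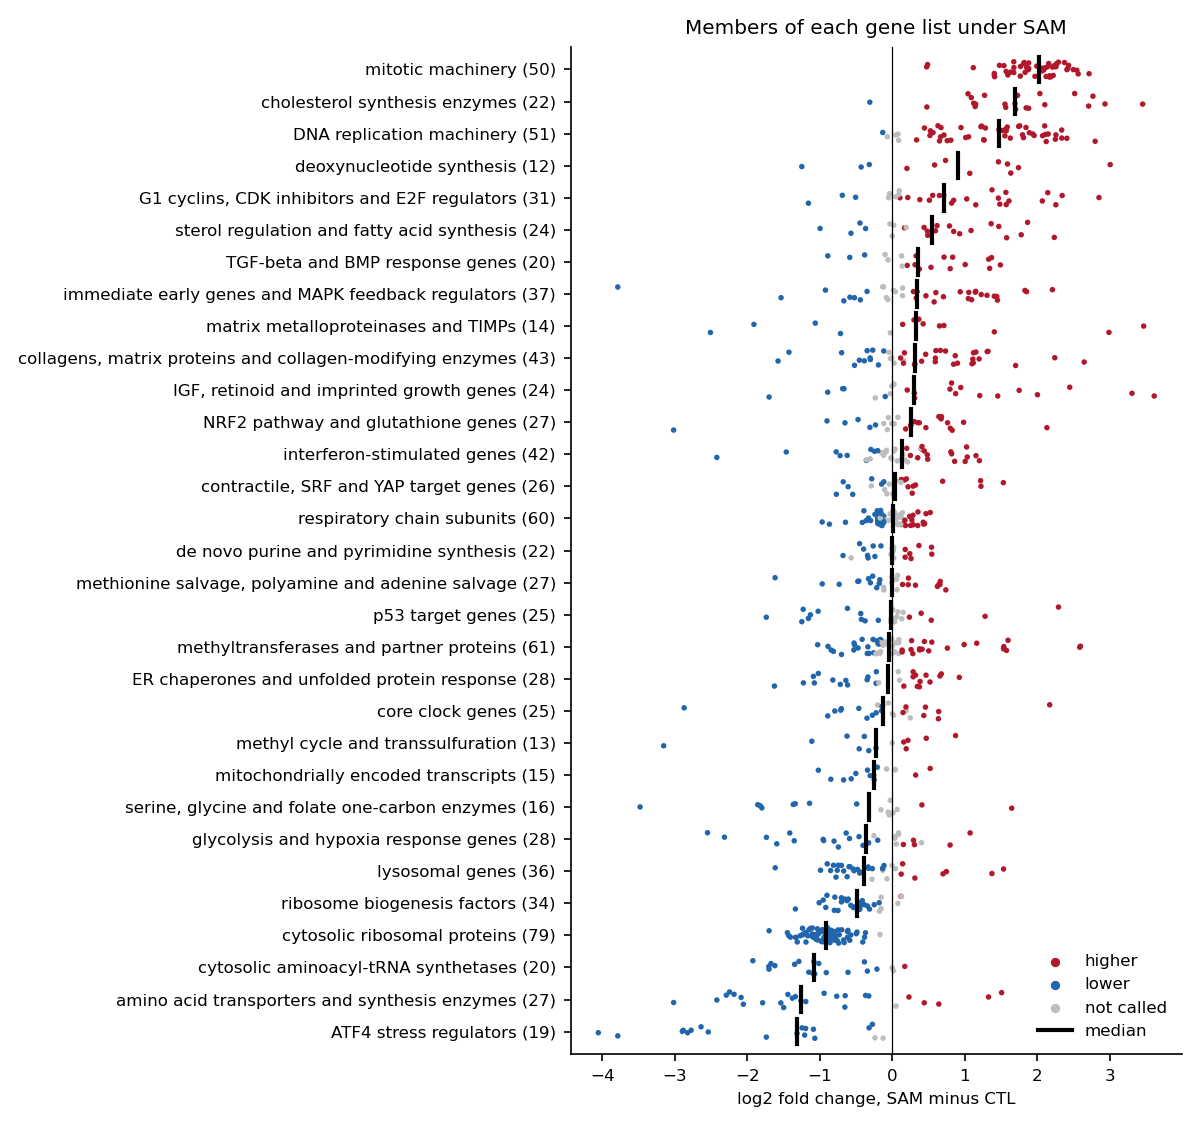
Log2 fold change of SAM against CTL (x axis) for each member (point) of 31 gene lists, with the number of members in parentheses and the list median as a black line. Mitotic machinery (median 2.03) and cholesterol synthesis enzymes (1.70) stand at the top, and ATF4 stress regulators (-1.31) at the bottom.

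Genes of the ATF4 response fell as a group. None of the 19 stress regulators on this list was higher and 17 were lower (background 35.7%), with a median log2 fold change of -1.31 against -0.0154 for all genes. Together they took 0.429% ± 0.00636 (SD, n = 3) of the reads in CTL and 0.164% ± 0.00355 in SAM, a measure that does not use the scaling. Atf4 itself had 9.54, 9.51 and 9.56 log2 CPM in CTL and 8.45, 8.44 and 8.52 in SAM (log2 fold change -1.07, SE 0.027, adjusted p = 1.89e-14 from limma). Ddit3, the pro-apoptotic factor CHOP (chromosome 10, 127124268 to 127132163), fell 7.37-fold, from 8.08, 8.09 and 8.10 to 5.15, 5.17 and 5.30. Chac1, which degrades glutathione (chromosome 2, 119180757 to 119184866), fell 5.81-fold, from 6.84, 6.72 and 6.82 to 4.27, 4.31 and 4.18. On the log2 scale the ATF4 transcript fell by 1.07 and those of Trib3, Ddit3 and Chac1 by 4.05, 2.88 and 2.54. Further members were Vldlr (-2.77), Atf5 (-2.64), Fgf21 (-2.82) and Sesn2 (-1.74), a lipoprotein receptor, a related transcription factor, a secreted hormone and a restrainer of mTORC1. The 2 members that did not pass the test were Cebpb (-0.24) and Ddit4 (-0.13).

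Amino acid uptake and synthesis genes moved with them. Of 27 listed genes, 5 were higher, 21 were lower and 1 did not pass the test, with a median of -1.26, and their share of reads was 0.561% ± 0.00537 (SD, n = 3) in CTL and 0.266% ± 0.00196 in SAM. Asns, asparagine synthetase (chromosome 6, 7671667 to 7728461), had 8.77, 8.74 and 8.80 log2 CPM in CTL and 6.69, 6.67 and 6.79 in SAM, 4.15-fold lower. Slc7a5, the light chain of the large neutral amino acid transporter (chromosome 8, 122607884 to 122634433), had 9.17, 9.10 and 9.14 in CTL and 6.89, 6.94 and 6.85 in SAM, 4.74-fold lower. In both genes the SAM dishes were all about 2 below the CTL dishes. The glycine transporter Slc6a9 (-2.29), the glutamine transporter Slc1a5 (-2.42), the mitochondrial alanine transaminase Gpt2 (-2.09) and the proline enzyme Pycr1 (-2.18) also fell. Among the 5 higher members were Slc43a2 (1.51), Slc43a1 (1.33), Glul (0.64) and Slc7a6 (0.44), which encode transporters of neutral or cationic amino acids and glutamine synthetase, and Slc36a1 (0.052) was not called.

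Most enzymes that charge tRNA fell. Of 20 cytosolic aminoacyl-tRNA synthetases, 1 was higher, 17 were lower and 2 did not pass the test, with a median of -1.08 and a share of reads of 0.672% ± 0.00337 (SD, n = 3) in CTL and 0.355% ± 0.00175 in SAM. The smallest adjusted p-values were those of Wars1 (-1.92), Sars1 (-1.67), Nars1 (-1.62) and Gars1 (-1.35). The 1 higher member was Vars1 (0.17), and Farsa (-0.0029) and Hars1 (0.017) were not called. In the serine, glycine and folate pathway, 8 of 16 genes were lower, 2 higher and 6 not called (62.5% called, against 69.3% of all genes). The mitochondrial enzymes Aldh1l2 (-3.48), Mthfd1l (-1.86), Mthfd2 (-1.82) and Shmt2 (-1.37) and the serine synthesis enzymes Psph (-1.80), Phgdh (-1.34) and Psat1 (-1.14) fell, while the mitochondrial Amt (-0.058), Gcsh (-0.029) and Slc25a32 (-0.042) were not called. Of the cytosolic enzymes Mthfd1 was not called (0.067) and Shmt1, 1 of the 2 higher members, rose (0.41). Genes of this list took 0.369% ± 0.00556 (SD, n = 3) of the reads in CTL and 0.152% ± 0.00356 in SAM.

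The C/EBP-ATF response element (CARE), to which ATF4 binds with a C/EBP partner, was counted in the promoters of these 4 lists. The letters TGATGNAA were searched on both strands from 250 bases before to 50 after the start of each gene's canonical transcript in GRCm39, a window of 300 bases. They occurred in 2.65% of 12574 promoters of genes in the table, in 6 of 19 of the stress regulators (31.6%), in 6 of 27 of the amino acid genes (22.2%), in 5 of 20 of the tRNA synthetases (25%) and in 0 of 16 of the folate and serine genes. All 17 list genes with a match were lower under SAM, with log2 fold changes from -3.79 to -0.65, beside 63 of all 82 members of the 4 lists. Of the 333 genes in the table with a match, these 17 included, 144 were lower (43.2%) and 83 higher (24.9%). Of the 12241 without one, 35.5% were lower and 33.9% higher. Trib3 and Asns had no match in this window, which says only that these letters are not there. A match is a description of the sequence and not a binding site shown here. The windows of Slc7a11, Chac1 and Atf3 are printed 5′ to 3′ on the gene's strand because these genes carry the fall described here, with the matches in capitals, and Slc7a11 holds 2 of them on opposite strands.
Slc7a11 (chr3:50398014-50398313, minus strand): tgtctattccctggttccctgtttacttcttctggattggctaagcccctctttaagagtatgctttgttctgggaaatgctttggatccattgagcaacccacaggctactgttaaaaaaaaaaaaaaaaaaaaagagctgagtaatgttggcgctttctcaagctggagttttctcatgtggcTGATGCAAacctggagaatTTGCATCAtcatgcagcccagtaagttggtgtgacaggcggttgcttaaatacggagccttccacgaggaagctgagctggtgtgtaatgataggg
Chac1 (chr2:119181439-119181738, plus strand): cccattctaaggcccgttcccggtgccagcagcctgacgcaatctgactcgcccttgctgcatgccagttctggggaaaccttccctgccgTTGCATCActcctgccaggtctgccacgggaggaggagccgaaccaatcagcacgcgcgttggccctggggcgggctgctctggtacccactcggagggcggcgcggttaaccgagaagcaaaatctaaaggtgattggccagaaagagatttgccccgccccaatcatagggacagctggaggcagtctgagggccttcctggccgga
Atf3 (chr1:190915488-190915787, minus strand): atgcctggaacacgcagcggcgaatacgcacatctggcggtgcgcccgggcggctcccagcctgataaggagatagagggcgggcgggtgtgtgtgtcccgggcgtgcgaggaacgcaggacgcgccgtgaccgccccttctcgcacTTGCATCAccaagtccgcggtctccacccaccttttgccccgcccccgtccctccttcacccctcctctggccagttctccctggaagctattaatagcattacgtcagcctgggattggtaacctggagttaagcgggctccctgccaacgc

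**Figure D3:**
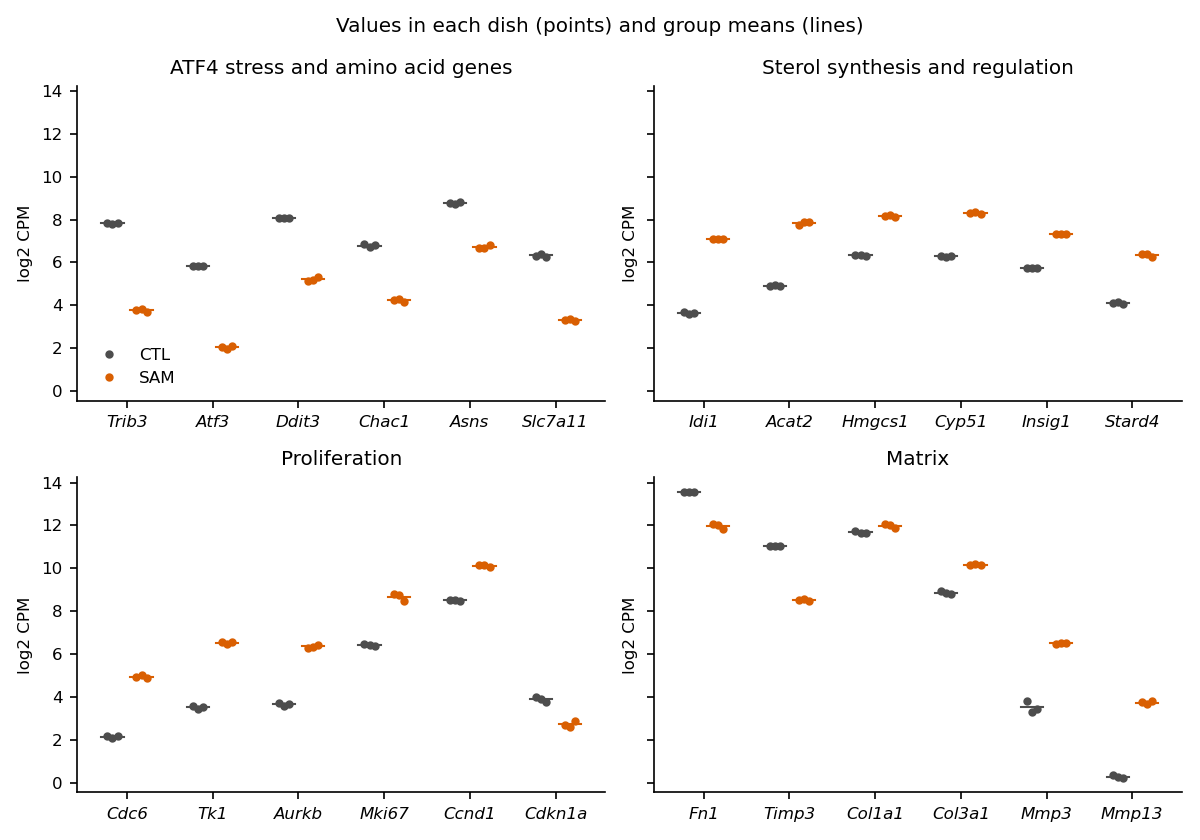
Values in log2 CPM (y axis) of 24 genes in the 3 CTL (grey) and 3 SAM (orange) dishes, with a line for each group mean. The 2 groups do not overlap in any gene shown, and the stress and amino acid genes stand lower in SAM while the sterol genes stand higher.

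Cholesterol synthesis genes rose nearly throughout the pathway. Of 22 listed enzymes, 21 were higher (background 33.7%), 1 was lower and all passed the test, with a median of 1.70. They took 0.0888% ± 0.00123 (SD, n = 3) of the reads in CTL and 0.305% ± 0.00401 in SAM, a ratio of 3.43. Hmgcs1, the HMG-CoA synthase of an early step (chromosome 13, 120151915 to 120170470), had 6.36, 6.34 and 6.31 log2 CPM in CTL and 8.19, 8.22 and 8.13 in SAM (log2 fold change 1.85, SE 0.032, adjusted p = 3.11e-16 from limma). Cyp51, the sterol demethylase (chromosome 5, 4123416 to 4154751), rose 4.1-fold, from 6.29, 6.25 and 6.32 to 8.31, 8.37 and 8.28. Every SAM dish was above every CTL dish by a wide margin in both genes. The late enzyme Hsd17b7 (2.77) rose as well, and squalene epoxidase, Sqle, by 1.27. The lower member, Ggps1 (-0.31), makes geranylgeranyl diphosphate on a branch that leads away from sterols.

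Sterol regulation, transport and fatty acid genes moved less evenly. Of 24 genes, 16 were higher, 4 were lower and 4 did not pass the test, with a median of 0.54. Insig1, a sterol sensor of the endoplasmic reticulum (chromosome 5, 28276315 to 28283668), had 5.76, 5.75 and 5.73 log2 CPM in CTL and 7.33, 7.33 and 7.31 in SAM, 2.98-fold higher. The sterol carrier Stard4 (2.23) and fatty acid synthase, Fasn (1.36), rose, as did Srebf2, the SREBP of sterol synthesis (0.79). The 4 lower members, Apoe (-1.0), Mid1ip1 (-0.57), Nr1h2 (-0.45) and Abca1 (-0.37), include the cholesterol export genes Apoe and Abca1 and the oxysterol receptor Nr1h2. A sterol regulatory element spelled TCACNCCAC was found on either strand in 1.17% of all promoters, in 1 of 22 of the synthesis enzymes and in 3 of 24 (12.5%) of the second list. Over the table, 38.8% of the 147 genes with a match were higher and 36.1% lower, against 33.6% and 35.7% of the 12427 without, and the medians were -0.015 in both sets. The window of Hmgcs1 holds it and is shown as the example, with the match in capitals.
Hmgcs1 (chr13:120151732-120152031, plus strand): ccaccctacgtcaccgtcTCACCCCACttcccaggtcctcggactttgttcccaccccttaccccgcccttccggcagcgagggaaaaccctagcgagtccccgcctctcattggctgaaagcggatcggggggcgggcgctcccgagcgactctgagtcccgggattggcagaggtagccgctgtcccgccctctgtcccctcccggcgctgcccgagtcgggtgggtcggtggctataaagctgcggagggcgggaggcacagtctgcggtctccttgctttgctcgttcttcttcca

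Genes of cell division rose under SAM. All 50 genes of the mitotic machinery were higher under SAM (background 33.7%), with log2 fold changes from 0.47 to 2.71 and a median of 2.03. Their share of reads was 0.181% ± 0.00389 (SD, n = 3) in CTL and 0.689% ± 0.0129 in SAM, a ratio of 3.82. Mki67, the proliferation marker (chromosome 7, 135291513 to 135318299), had 6.47, 6.41 and 6.35 log2 CPM in CTL and 8.80, 8.75 and 8.47 in SAM (log2 fold change 2.26, SE 0.082, adjusted p = 1.02e-12 from limma). SAM replicate 3 was the lowest of the SAM dishes in this gene and still far above CTL. The mitotic kinase Aurkb (chromosome 11, 68936467 to 68944764) rose 6.56-fold, from 3.69, 3.58 and 3.66 to 6.29, 6.35 and 6.42. Others with the smallest adjusted p-values were the checkpoint kinase Bub1 (2.41), the condensin subunit Smc2 (2.14) and the cytokinesis factor Ect2 (1.63). RNA levels do not count dividing cells, and no cell counts of these dishes were used here.

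DNA replication genes showed the same direction. Of 51, 46 were higher, 1 lower and 4 not called, with a median of 1.47 and a share of reads of 0.183% ± 0.00206 (SD, n = 3) in CTL and 0.424% ± 0.00183 in SAM. Mcm5, a subunit of the replicative helicase (chromosome 8, 75836140 to 75856231), had 5.30, 5.29 and 5.30 log2 CPM in CTL and 7.43, 7.44 and 7.38 in SAM, 4.35-fold higher. The initiation kinase Cdc7 (2.34), the helicase subunit Mcm4 (1.76), the polymerase Pold1 (1.74) and the flap endonuclease Fen1 (1.63) followed. The helicase subunit Mcm2 (-0.13) was the exception, a call that was lost with plain read totals, and the origin recognition genes Orc2 (-0.068), Orc3 (0.079), Orc4 (0.048) and Orc5 (0.088) were not called, whereas Orc1 (2.26) and Orc6 (0.67) rose. The E2F letters TTTCCCGC or TTTGGCGC were found on either strand in 2.76% of all promoters, in 14 of 51 (27.5%) of the replication genes, in 1 of 50 (2.0%) of the mitotic genes and in 1 of 12 of the deoxynucleotide genes. Of the 16 genes with a match in these 3 lists, 15 were higher and 1 was not called, beside 105 of all 113 members. Over the table, 46.7% of the 347 genes with a match, these 16 included, were higher and 27.1% lower. Of the 12227 without, 33.3% were higher and 36.0% lower. The window of Mcm5 is shown as an example, with the match in capitals.
Mcm5 (chr8:75835890-75836189, plus strand): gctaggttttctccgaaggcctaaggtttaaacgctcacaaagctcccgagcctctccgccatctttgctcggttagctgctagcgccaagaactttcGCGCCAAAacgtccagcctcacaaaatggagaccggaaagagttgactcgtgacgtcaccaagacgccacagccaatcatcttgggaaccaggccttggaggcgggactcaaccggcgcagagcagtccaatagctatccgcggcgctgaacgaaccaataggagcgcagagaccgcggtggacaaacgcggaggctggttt

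Among the regulators of entry into the cell cycle, 22 of 31 were higher, 3 lower and 6 not called, with a median of 0.71. Ccnd1, cyclin D1 (chromosome 7, 144483668 to 144493662), had 8.50, 8.53 and 8.47 log2 CPM in CTL and 10.14, 10.14 and 10.06 in SAM, 3.05-fold higher. The transcription factors E2f7 (2.85) and Foxm1 (2.34) rose, and so did the CDK inhibitor Cdkn2c (1.57). The 3 lower genes were Cdkn1a (-1.16), Myc (-0.69) and Cdkn1b (-0.51), a pair of CDK inhibitors and a growth-promoting factor. Cdkn1a, p21 (chromosome 17, 29309936 to 29319701), had 3.98, 3.90 and 3.77 log2 CPM in CTL and 2.70, 2.61 and 2.88 in SAM (log2 fold change -1.16, SE 0.09, adjusted p = 9.98e-09). Deoxynucleotide synthesis genes were higher in 9 of 12, with the smallest adjusted p-values for Tk1 (3.0), Rrm2 (1.74), Rrm1 (1.63) and Dtymk (1.07), and lower in 3, Rrm2b (-1.25), Dctd (-0.43) and Tk2 (-0.32), of which Rrm2b is the p53-dependent and Tk2 the mitochondrial form. Of 25 p53 target genes, 5 were higher, 11 were lower and 9 did not pass the test. The list had 64% called, against 69.3% of all genes, and a median of -0.021. Within that list Sesn2 (-1.74) and Bbc3 (-1.23) fell and Sesn1 (1.28) and Gtse1 (2.29) rose, and Mdm2, which restrains p53, was not called (0.062).

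Ribosomal protein transcripts fell nearly uniformly. Of 79 cytosolic ribosomal protein genes, 78 were lower and none higher (background 35.7% and 33.7%), with a median of -0.91, and Rps29 (-0.17) was the 1 not called. They took 4.86% ± 0.0862 (SD, n = 3) of the reads in CTL and 2.76% ± 0.16 in SAM. Rpl3 (chromosome 15, 79961825 to 79976069) had 10.35, 10.41 and 10.36 log2 CPM in CTL and 8.91, 8.96 and 8.95 in SAM (log2 fold change -1.43, SE 0.028, adjusted p = 1.29e-15), and Rps7 (-1.70), Rpl13a (-1.40) and Rps9 (-1.33) fell alike. Ribosomal proteins have many processed pseudogenes, so that reads of single genes could have been split. SAM replicate 3 stood above the other SAM dishes in the summed share, at 2.95% against 2.67% and 2.67%, and without it the median was -0.96 and all 79 genes were lower. Ribosome biogenesis factors fell as well but by less, 28 of 34 lower, 1 higher and 5 not called, with a median of -0.49. The nucleolar proteins Npm1 (-1.34) and Ncl (-0.92) and the factors Nop14 (-1.01) and Gnl3 (-0.80) had the smallest adjusted p-values, and Nolc1 (0.12) was the higher member.

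**Figure D4:**
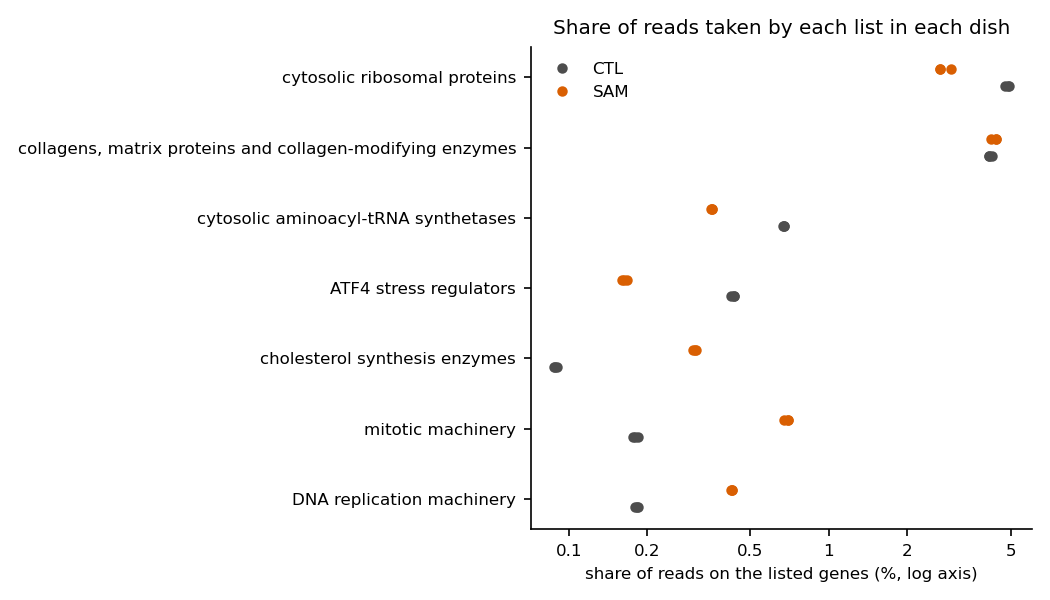
Share of all reads on the listed genes (x axis, %, log scale) taken by 7 gene lists in each CTL (grey) and SAM (orange) dish. Ribosomal proteins went from a mean of 4.86% to 2.76%, mitotic machinery from 0.181% to 0.689%, and the matrix list was at 4.17% and 4.32%.

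Genes of the pathways in which SAM itself takes part showed no common direction. In the methyl cycle and transsulfuration, 5 of 13 genes were higher, 7 lower and 1 not called (92.3% called, against 69.3% of all genes). The list median was -0.23. Mat2a, which makes SAM (chromosome 6, 72409779 to 72416684), had 8.52, 8.48 and 8.52 log2 CPM in CTL and 7.36, 7.38 and 7.45 in SAM, 2.16-fold lower. Ahcy (chromosome 2, 154901230 to 154916422) had 7.39, 7.40 and 7.38 in CTL and 7.16, 7.15 and 7.19 in SAM, a small difference (-0.23) that exceeded the spread between dishes. With plain read totals the list median was -0.103 instead of -0.23, so that values this small depend in part on the scaling. Ahcyl2, a relative of Ahcy, fell by 0.63 on the log2 scale, while Sqor, which oxidises sulfide, rose (0.47). In methionine salvage, polyamine and adenine salvage 9 of 27 were higher, 11 lower and 7 not called (74.1% called, against 69.3% of all genes). Mtap, which releases adenine from methylthioadenosine, rose only slightly (0.14), Amd1, SAM decarboxylase, had 0.22 with reads possibly shared with its copy Amd2, and Aprt, which salvages adenine, fell (-0.48). The 2 steepest falls of this list, the ecto-nucleotidase Nt5e (-1.62) and the polyamine acetyltransferase Sat1 (-0.97), and the rises of the polyamine regulator Oaz1 (0.74) and of Pnp (0.64) had the smallest adjusted p-values. De novo purine and pyrimidine genes were 7 higher, 8 lower and 7 not called of 22 (68.2% called, against 69.3% of all genes). Ppat, the first purine enzyme, was at 0.37, Atic at -0.68, Umps at 0.54 and Cad, which was not called, at 0.021.

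Among 61 methyltransferases and partner proteins, 20 were higher, 22 were lower and 19 did not pass the test. The share called, 68.9%, was near the 69.3% of all genes, and the median was -0.049. The rises were led by genes known to be expressed in dividing cells, Uhrf1 (2.59), Phf19 (2.58), Suv39h1 (1.60) and Dnmt1 (1.57), of which Dnmt1 and its partner Uhrf1 copy DNA methylation at replication, Suv39h1 is a histone H3K9 methyltransferase and Phf19 a PRC2 partner. Ezh2, the PRC2 enzyme, rose (0.99) and its paralog Ezh1 fell (-0.47), 2 genes named after their values were seen. Prmt3, an arginine methyltransferase of a ribosomal protein, fell (-0.89), and so did Nnmt (-1.03), which methylates nicotinamide. With plain read totals the median of this list was above 0 (0.073), as were those of salvage (0.113), purine and pyrimidine synthesis (0.12), p53 target genes (0.101) and ER chaperones and unfolded protein response (0.068), so that these 5 lists had no direction that held under both scalings.

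Matrix genes moved in both directions. Of 43 genes for collagens, matrix proteins and collagen-modifying enzymes, 26 were higher, 12 were lower and 5 did not pass the test, with a median of 0.31. Fn1, fibronectin and the most abundant gene of the list (chromosome 1, 71624673 to 71692419), had 13.57, 13.56 and 13.55 log2 CPM in CTL and 12.07, 12.03 and 11.85 in SAM, 2.98-fold lower (log2 fold change -1.58, SE 0.051, adjusted p = 2.60e-13 from limma). The collagen gene Col3a1 (chromosome 1, 45350698 to 45395840) moved the other way, from 8.92, 8.86 and 8.81 to 10.17, 10.21 and 10.13, 2.48-fold higher. Col6a1 (1.11), Col6a2 (1.12) and the fibulin Fbln1 (2.24) rose, Col1a1 rose slightly (0.31), and the crosslinking enzyme Loxl4 (-1.43) and fibrillin Fbn1 (-0.70) fell. Of 14 matrix metalloproteinases and their inhibitors, 9 were higher, 4 were lower and 1 did not pass the test. Timp3, the inhibitor held in the matrix (chromosome 10, 86136236 to 86185371), had 11.02, 11.03 and 11.04 log2 CPM in CTL and 8.53, 8.57 and 8.47 in SAM, 5.69-fold lower. Mmp13, a collagenase (chromosome 9, 7272514 to 7283331), was scarcely present in CTL, at 0.34, 0.25 and 0.21 log2 CPM, and stood at 3.75, 3.64 and 3.80 in SAM. The stromelysin Mmp3 rose (2.99), Mmp28 fell (-1.91), and Timp1 rose (0.65).

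Contractile, SRF and YAP targets were 11 higher, 7 lower and 8 not called of 26 (69.2% called, against 69.3% of all genes). Acta2, smooth muscle actin, fell (-0.61), whereas the collagen receptor Itga11 (1.22) and the receptor kinase Axl (0.69) rose. In the TGF-beta and BMP list 13 of 20 were higher, 3 lower and 4 not called, with Bmp4 (1.37), Grem1 (1.33) and Tgfb1 (0.71), a ligand, a BMP antagonist and a ligand, and Ltbp4 (-0.89), a latency protein. Of 24 IGF, retinoid and imprinted growth genes, 14 were higher, 5 were lower and 5 did not pass the test. The imprinted genes Mest and H19 were among the higher ones. Mest (chromosome 6, 30723546 to 30752058) had 0.17, 0.22 and 0.41 log2 CPM in CTL and 3.50, 3.59 and 3.63 in SAM, and the growth-restraining noncoding RNA H19 had 4.65, 4.64 and 4.53 and 7.09, 7.04 and 7.03. Crabp1 rose, as given above, while Crabp2, the other cellular retinoic acid binding protein, had 7.0, 6.97 and 6.97 in CTL and 6.30, 6.24 and 6.34 in SAM and fell by 0.68 on the log2 scale. Igfbp4 fell (-1.70), in contrast to Igf1 (2.0), Igfbp2 (1.75) and Igfbp6 (1.21), which rose.

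Signalling and stress lists were mixed. Immediate early genes and feedback regulators of MAPK signalling were 21 higher, 8 lower and 8 not called of 37, with a median of 0.34. Fos had 0.74, 0.88 and 1.21 log2 CPM in CTL and 2.73, 2.73 and 2.93 in SAM, Egr1 rose (1.09), and so did the feedback regulators Spry1 (1.45) and Errfi1 (1.23) and the AP-1 gene Jun (1.05). The steepest member, Atf3 (-3.79), belongs also to the ATF4 list and moved with it. Of 27 NRF2 and glutathione genes, 15 were higher, 6 were lower and 6 did not pass the test, with a median of 0.25. Gstm1 (0.98) and Pgd (0.83) rose, Nqo1 rose most (2.13), and the lower end was Slc7a11 (-3.02), which is an ATF4 target as well, followed by Hmox1 (-0.90). In the ER chaperone and unfolded protein response list 12 were higher and 13 lower of 28, with a median of -0.054 and a highest value of 0.92. The smallest adjusted p-values were for falls, of the sensor Atf6 (-1.63), the degradation factors Derl1 (-1.23) and Sel1l (-1.02) and the chaperone Hyou1 (-0.72).

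Of 42 interferon-stimulated genes, 16 were higher, 9 were lower and 17 did not pass the test. The share called was 59.5%, against 69.3% of all genes, and the median was 0.13. Ifit1, which binds foreign RNA (chromosome 19, 34618271 to 34632174), had 4.55, 4.36 and 4.43 log2 CPM in CTL and 2.91, 2.89 and 3.15 in SAM (log2 fold change -1.46, SE 0.076, adjusted p = 6.76e-11 from limma), while Irf1 (1.20), Tapbp (1.03) and Parp9 (1.02) rose. The steepest fall was that of Ifi44 (-2.42). Of 28 glycolysis and hypoxia response genes, 5 were higher, 16 were lower and 7 did not pass the test, with a median of -0.37. The hypoxia-inducible genes Ndrg1 (-2.55), Ero1a (-2.31), Vegfa (-1.59) and Hk2 (-1.35) fell, and the higher members were Adm (1.07), Pfkfb4 (0.80), Pfkm (0.30), Eno1 (0.29) and Egln1 (0.15). Of 36 lysosomal genes, 7 were higher, 24 were lower and 5 did not pass the test, with a median of -0.39, and the autophagy receptor Sqstm1 (-1.61), the protease Ctsl (-0.99), the proton pump subunit Atp6v1b2 (-0.90) and acid glucosidase, Gaa (-0.81), had the smallest adjusted p-values. Tfeb, the transcription factor that raises lysosomal genes, was 1 of the 7 higher members, at 1.37.

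Of 60 nuclear-encoded respiratory chain subunits, 16 were higher, 24 lower and 20 not called, with a median of 0.0056. The share called was 66.7%, below the 69.3% of all genes. With plain read totals 26 were higher and 8 lower, with a median of 0.128, and the median was -0.041 without SAM replicate 3, -0.030 without CTL replicate 2 and -0.033 with median centring. None of them changed by 1 or more on the log2 scale, and the lowest and highest were Ndufa6 (-0.97) and Uqcrb (0.52). Of 15 transcripts encoded by the mitochondrial genome, 9 were lower, 2 higher and 4 not called, led by mt-Cytb (-1.02), mt-Nd3 (-0.85) and mt-Nd4l (-0.67), and the 2 higher were the ribosomal RNAs mt-Rnr1 (0.52) and mt-Rnr2 (0.32). The mitochondrial values were uneven between dishes, with a summed share of 3.08% to 3.6% in SAM and 3.57% to 3.76% in CTL, and the highest SAM dish was replicate 3. Clock genes were 7 higher, 11 lower and 7 not called of 25 (72% called, against 69.3% of all genes). With plain read totals 9 were higher and 8 lower. Per2, which carries the reporter fusion in these cells, had 2.27, 2.13 and 2.01 log2 CPM in CTL and 2.65, 2.39 and 2.12 in SAM, overlapping ranges that did not pass the test (adjusted p = 0.192 from limma). Timeless, known for its role at the replication fork, rose most (2.17), from 4.15, 3.97 and 4.16 to 6.33, 6.33 and 6.12, and Usp2 (0.64) and Bhlhe41 (0.64) were also higher. The repressor Ciart fell furthest (-2.87), from 4.06, 3.97 and 4.19 to 1.08, 1.42 and 1.11, with Nfil3 (-0.89), Dbp (-0.71) and Nr1d1 (-0.46) also lower, all at the single time of 24 h. The E-box CACGTG, to which the clock activators bind, was in 7 of 25 promoters of the list (28%) and in 9.62% of all promoters. Of the 7 genes with it 3 were higher, 2 lower and 2 not called, and among all genes 29.3% of the 1210 genes with a match were higher and 38.8% lower, against 34.1% and 35.4% of the 11364 without.

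SAM and adenine were given at the same dose of 1 mM for the same time, and adenine is the base contained in SAM. Tested directly in the same model, the 2 treatments differed in 5382 genes (42.7%), 2617 higher under SAM (20.8%) and 2765 lower (22.0%), of which 202 differed by 1 or more on the log2 scale. With plain read totals 3573 were higher under SAM and 2081 lower, so that counts above and below adenine depend on the scaling where differences are small. Genes of the ATF4 lists were mostly lower under SAM than under adenine. Of the 19 stress regulators, 18 were lower under SAM than under adenine and 0 higher. Of 27 amino acid genes 18 were lower and 4 higher, and of 20 tRNA synthetases 16 were lower and 0 higher. Slc7a11 fell by 3.02 under SAM and had -0.16 under adenine, both against the same CTL dishes, and the direct difference was -2.86, SE 0.054, adjusted p = 3.37e-15 in limma. Chac1 had -2.54 and -0.082 (difference -2.46, SE 0.046, adjusted p = 3.37e-15), and Psat1 -1.14 and 0.051 (difference -1.19, SE 0.029, adjusted p = 7.62e-14). Trib3 was lower in both, -4.05 and -1.25, with a difference of -2.81. Adenine values for Slc7a11, Chac1 and Psat1 were close to CTL where SAM values were far below it. These 3 genes do not stand for their lists, whose medians against CTL were below 0 under both treatments. The medians of stress regulators, amino acid genes and tRNA synthetases were -1.31, -1.26 and -1.08 under SAM. Under adenine they were -0.38, -0.14 and -0.32.

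Lists of other pathways also differed between SAM and adenine. Under SAM 20 of 22 cholesterol enzymes, 39 of 50 mitotic and 35 of 51 replication genes were above their adenine levels, with list medians against CTL of 1.70, 2.03 and 1.47 under SAM and 1.0, 1.65 and 1.09 under adenine. Idi1 had 3.45 and 2.33, a difference of 1.12, SE 0.049, adjusted p = 7.63e-11, whereas Mki67 had 2.26 and 2.02, a difference of 0.24 that did not pass the threshold (SE 0.082, adjusted p = 0.0214 from limma). Ribosomal proteins fell less under SAM, 45 of 79 above adenine and 2 below, with medians of -0.91 and -1.11. The matrix list rose less under SAM, with medians of 0.31 and 0.65, and 34 of 43 genes were below adenine and 3 above. Fn1, at -1.58 and -0.43, was below CTL in both. Interferon-stimulated genes were higher under SAM than under adenine in 33 of 42 and lower in 0, with medians of 0.13 and -0.29. The early growth response genes Egr2 (1.15 and 3.33) and Egr3 (1.83 and 3.23), named after their values were seen, rose less under SAM, with direct differences of -2.18 and -1.41.

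Some genes were called in opposite directions against CTL. Cdkn1a fell under SAM (-1.16) and rose under adenine (0.54), a direct difference of -1.70, SE 0.09, adjusted p = 7.04e-10 in limma. Fbn1 (-0.70 and 0.34), the matrix protein Tnc (-0.35 and 0.43), the actin-binding Tagln (-0.55 and 0.31), the carbonic anhydrase Car9 (-0.95 and 0.68) and the taurine enzyme Csad (-0.46 and 0.72) did likewise, and these 5 were chosen after their values were seen. Per2 was higher under SAM than under adenine, by 1.01, SE 0.17, adjusted p = 1.35e-04, with 0.25 and -0.76 against CTL, the former not called.

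**Figure D5:**
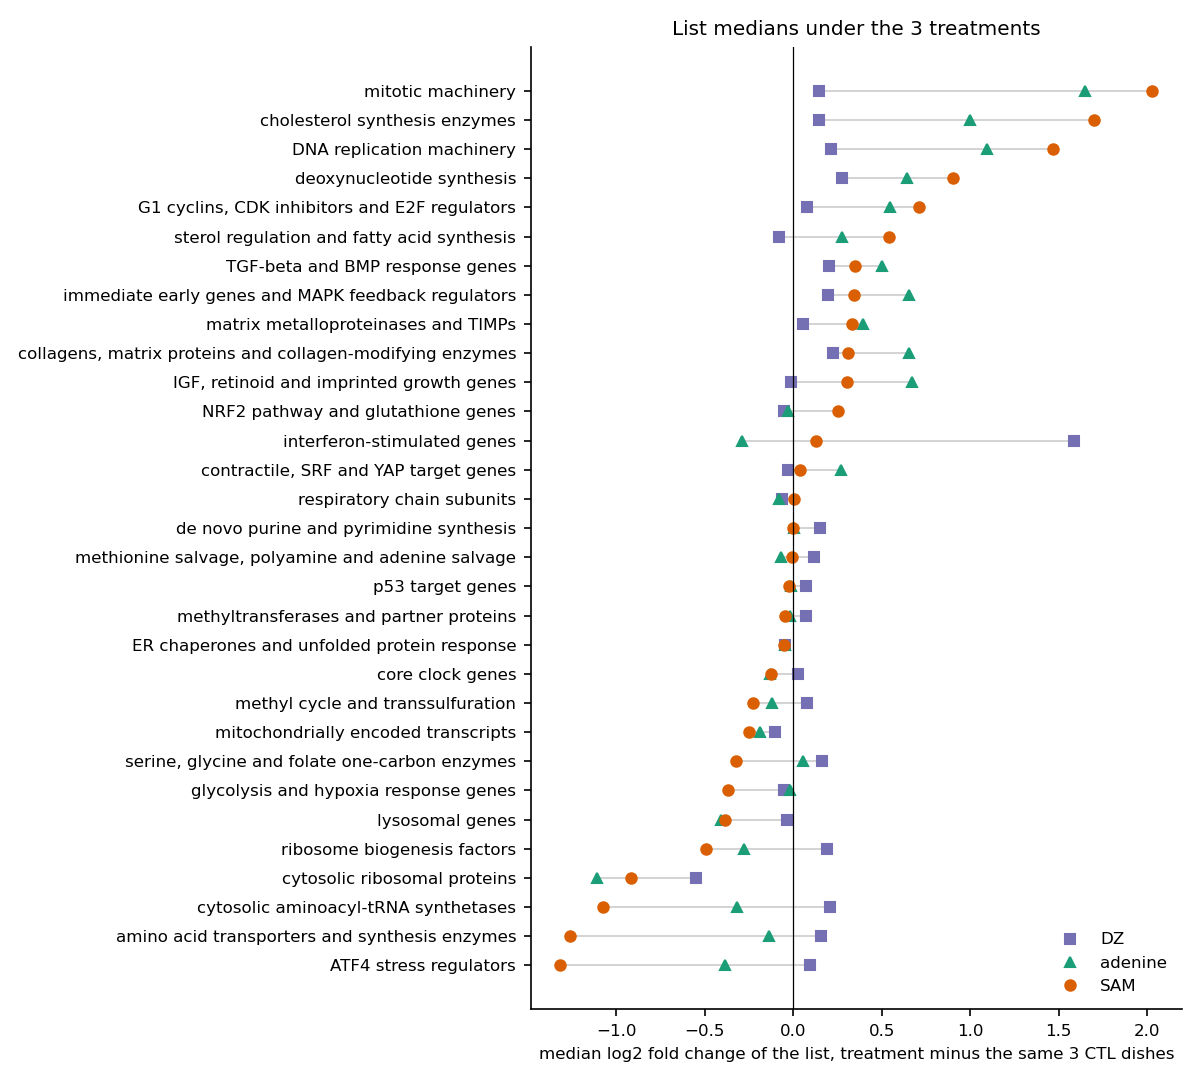
Median log2 fold change against the same 3 CTL dishes (x axis) of each gene list under SAM (circles), adenine (triangles) and DZ (squares). The medians of SAM and adenine are close for the lysosomal list, where 13 members were above and 12 below adenine in the direct test, and for the clock list, where 12 were above and 5 below, and they are far apart for the 3 lists of ATF4, amino acid and tRNA synthetase genes, and the DZ median of the interferon-stimulated genes is 1.58.

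DZ was given at 10 μM, so that its values stand beside those of SAM at different doses. SAM and DZ dishes differed in 8684 genes (69.0%), 4277 higher under SAM (34.0%) and 4407 lower (35.0%). With plain read totals 5164 were higher under SAM and 3553 lower. List medians under DZ were 0.094 for ATF4 stress regulators, 0.14 for cholesterol synthesis, 0.14 for mitotic machinery and 0.22 for DNA replication, against -1.31, 1.70, 2.03 and 1.47 under SAM. For ribosomal proteins the medians were -0.55 and -0.91. In the interferon list 37 of 42 genes were lower under SAM than under DZ and 3 higher, with list medians of 1.58 under DZ and 0.13 under SAM. Ifit1 was at 3.35 and Ifi44 at 2.85 under DZ, against -1.46 and -2.42 under SAM. Trib3 had -0.13, Slc7a11 -0.082 and Idi1 0.22 under DZ. Each pair of values shares the CTL dishes.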

How the data were processed

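Polyadenylated RNA of 12 dishes (3 each of CTL, SAM, adenine and DZ) was sequenced as stranded paired-end libraries. Per the labels and the paper's methods, the authors trimmed reads with Trimmomatic, aligned them to GRCm39 with HISAT2 and GENCODE vM27, quantified with StringTie, and left out genes under 1 CPM in any sample. The authors deposited log2 CPM of normalized library size made with edgeR. The method of their scaling factors and the tool versions are not given in the sources used here. All 12 columns were used.

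Taking off the prior count of 2 that the authors' step adds gave whole reads for 100% of values (tolerance 0.05 reads), from which depth, shares of reads and the plain totals were computed. As StringTie works from coverage, these reads are estimates. Counting error and the number of dishes, 3 per group, both limit the precision.

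Tests used limma 3.58.1 (R 4.3.3), with lmFit, contrasts and trended eBayes on a single fit to the 12 libraries, with Benjamini-Hochberg adjustment over 12591 genes and an FDR under 0.01. The script was tested on simulated data. Symbols and positions are from GENCODE vM39, which matched 12575 genes. Promoter windows were read from GRCm39. Python 3.11.15 with pandas 2.3.3, numpy 2.4.6 and matplotlib 3.10.9 made the tables and plots.

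Genes were named by rule: the 15 largest rises and falls among called genes, where dishes did not overlap and the mean reached 3 log2 CPM (leaving out unnamed models and pseudogenes, 1 among the rises), up to 4 genes per list with the smallest adjusted p, a set of defining genes, and members that complete a count. Other members named as ends of a range or examples were picked after their values were seen. The lists and rules were written with earlier results of these data known. A few genes of these lists are not reported here singly. Deviations of same-numbered SAM and CTL dishes were at most weakly correlated across genes (Pearson r of 0.00956, 0.0692 and 0.181).

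Alternatives tried were voom on the recovered reads, eBayes without the trend or in its robust form, 2 filters on low values, median centring, quantile normalization, plain read totals, a pseudocount of 1 CPM, an FDR under 0.05, a log2 fold change of at least 1, protein-coding genes only, a model of the 6 libraries compared, a replicate block and leaving out each library.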

Additional observations from a re-analysis of the deposited data

How the results depend on the processing

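The counts of genes that differed (8731 for SAM against CTL, 5382 against adenine and 8684 against DZ) stayed within 1.5 times of these values in 57 of 60 alternative fits. The 3 others required a log2 fold change of at least 1, which by construction left 1647, 202 and 1451 genes. Leaving out 1 library at a time gave 8223 to 8615, 4490 to 4955 and 8170 to 8604. With the replicate number as a replicate block the counts were 8734, 5337 and 8685. Deviations of same-numbered SAM and CTL dishes had Pearson r across genes of 0.00956, 0.0692 and 0.181, so that the numbers were not taken to pair the dishes. Of the values of named genes under the alternatives, 3414 kept their side of the threshold, 46 fell short of it, 1 newly passed it and no called value turned direction. Of the 46, 45 came from requiring a log2 fold change of at least 1, which drops small changes by construction. Most of these genes were named for steep changes or small adjusted p in these same data, so that few calls could be lost. The choice of scaling mattered most for small changes. Plain read totals gave 5462 higher and 3462 lower genes in place of 4237 and 4494, and 5 list medians near 0 changed sign. Every gene had at least 46 reads in every library, but the table leaves out genes under 1 CPM in any sample, so that genes silenced under SAM or absent from CTL were not measured. A single time and dose were sampled.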

Other observations

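Transcripts other than protein-coding ones leaned to lower levels under SAM. Of 1263 genes annotated as pseudogenes, 648 were lower (51.3%) and 149 higher (11.8%), with a median log2 fold change of -0.35, and of 275 long noncoding RNAs 137 were lower (49.8%) and 47 higher (17.1%), with a median of -0.38. Among 10948 protein-coding genes 4026 were higher (36.8%) and 3665 lower (33.5%), with a median of 0.021. Reads of processed pseudogenes can be shared with their parent genes, and their part in these counts was not tested.

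The first principal component of the 12 libraries, which held 70.7% of the variance, placed SAM dishes at 40.9 to 42.0, adenine dishes at 24.7 to 25.7, DZ dishes at -33.0 to -30.4 and CTL dishes at -36.0 to -34.9. The second, with 13.2%, separated DZ (20.5 to 22.2) from CTL (-19.8 to -19.6), with SAM dishes at 0.99 to 1.08.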
